A study of Mus musculus with 29 samples.

Results

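The 7 genes described here, of 27827 named in the count tables, carry and regulate TGF-beta signals: the ligand *Tgfb1*, the receptors *Tgfbr1*, *Tgfbr2* and *Acvr2b*, the signal transducer *Smad3* and the inhibitors *Smad7* and *Ski*. They were chosen by name, and all 7 were listed in every count table. Their levels were read in brain and blood cells of C57BL/6J mice after sham surgery or experimental stroke, profiled by Drop-seq, a droplet method that counts transcripts cell by cell. Counts were summed per library and per cell type as the authors had assigned it, and are given as CPM, the counts scaled to a common total for each sum.

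TGF-beta binds the receptor TGFBR2, which recruits and phosphorylates TGFBR1, and the activated pair phosphorylates SMAD2 and SMAD3, which enter the nucleus with SMAD4. Activins and related ligands use ACVR2A or ACVR2B in the same way. SMAD7 blocks the activated receptor and is itself induced by the pathway, and SKI represses transcription at SMAD-bound genes. In the adult brain, microglia depend on TGF-beta for their homeostatic gene programme, and endothelial cells use TGF-beta and BMP receptors in vessel maintenance.

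The young brain groups were male mice of 8 to 10 weeks at day 2 after sham surgery, day 2 after stroke and day 14 after stroke, with 4 libraries in each. Aged brain groups were mice of 17 to 20 months: 2 sham libraries at day 2 (1 male, 1 female), 3 stroke libraries at day 2 (1 male, 2 female) and 1 female stroke library at day 14. Peripheral blood leukocytes came from young males, with 4 sham libraries at day 2, 4 stroke libraries at day 2 and 3 stroke libraries at day 14. Each brain library pooled 4 to 5 hemispheres and was sorted for CD45high cells, microglia and endothelial cells, and each blood library pooled 2 mice. The day 14 groups were therefore compared with day 2 sham animals, so that time since surgery and stroke cannot be told apart there. Actinomycin D, which blocks transcription, was present while brain and blood cells were isolated.

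The 29 libraries held 1143 to 6328 cells and 819438 to 5855050 counts each. The deposited counts were fractional, mostly a little under a whole number. They fell short of the same values rounded up by 2.81% to 14.4% of the rounded-up total of a library. Among the 406 pairs of libraries, 231 shared a cell barcode, at most 7 barcodes in a pair. Defining markers were highest in the type they name for microglia (Mg), endothelial cells (EC), monocyte-derived cells (MdC), granulocytes (Gran) and the B, T and NK cells of brain, and for the monocytes (Mo), neutrophils (Neu), B, T and NK cells of blood. In the cells coded BAM and DC the monocyte or macrophage list was the highest, and in Eos.Bas of blood the neutrophil list, so those are called by their codes. Young brain libraries were of 2 kinds: in 5 libraries no cell exceeded a mitochondrial share of 3.51% to 6.44%, and in 7 the highest share was 17.5% to 20.1%, with 1 sham library in the first kind and 3 in the second.

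In the mm10 annotation (GRCm38), *Tgfbr1* (ENSMUSG00000007613.15) spans chr4:47353222-47414931 on the plus strand and *Acvr2b* (ENSMUSG00000061393.14) chr9:119402118-119434995 on the plus strand, where it overlaps the antisense gene Gm47320. Whether the counting used strand is not given in the sources used here, so reads of that pair may not have been separated. *Tgfb1* lies at chr7:25687002-25705077, *Tgfbr2* at chr9:116084293-116175360, *Smad3* at chr9:63646767-63757994 and *Ski* at chr4:155154075-155222592. The sequences before the start of *Tgfbr1* and *Acvr2b* are shown because these 2 receptor genes moved together in microglia, as described next. They are from RefSeq on GRCm38.p6, at chr4:47352972-47353221 and chr9:119401928-119402117, both on the plus strand and written 5′ to 3′, and capitals mark matches to CAGAC, the core that SMAD proteins bind, on either strand. The RefSeq start of *Acvr2b* lies 60 bases inside the gene as annotated above, and its window of 250 bases is shown up to the annotated start.
Tgfbr1: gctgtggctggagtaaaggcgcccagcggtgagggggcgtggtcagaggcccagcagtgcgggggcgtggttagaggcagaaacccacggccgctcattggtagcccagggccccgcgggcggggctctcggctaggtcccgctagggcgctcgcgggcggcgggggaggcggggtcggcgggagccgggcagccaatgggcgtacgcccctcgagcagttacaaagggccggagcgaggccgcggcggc
Acvr2b: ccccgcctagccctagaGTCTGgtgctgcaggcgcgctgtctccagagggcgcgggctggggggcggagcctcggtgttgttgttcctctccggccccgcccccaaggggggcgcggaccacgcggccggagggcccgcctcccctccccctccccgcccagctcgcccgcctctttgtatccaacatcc
The *Acvr2b* window held 1 match, on the minus strand, and the *Tgfbr1* window none. Of 32851 promoter windows of this length, 42.2% held CAGAC. Of the 7 windows found for 6 of the genes, 3 held it: the *Acvr2b* and *Tgfbr2* windows and a window at an alternative *Tgfbr1* start. The palindrome GTCTAGAC was in none of these 7 and in 0.167% of all windows, and the 2 motifs can overlap.

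*Tgfbr1*, the type I receptor through which TGF-beta signals, was highest in microglia and fell there after stroke. In sham microglia it stood at 1124, 1134, 1092 and 1403 CPM (replicates 1 to 4), at day 2 after stroke at 342, 380, 20.1 and 263 CPM, and at day 14 at 390, 337, 378 and 593 CPM. Every stroke library lay below every sham library at both times. The group means were 1188 ± 144 CPM in sham, 251 ± 162 CPM at day 2 and 424 ± 115 CPM at day 14 (SD, n = 4 each). At day 2 the fitted change was -1.90 ± 0.37 (log2 fold change ± approximate SE) with an adjusted p of 0.00255 by edgeR's quasi-likelihood test. This call remained under all 16 alternative settings. The SE of edgeR changes, here and below, is the absolute log2 change divided by the square root of the test's F value. At day 14 the change was -1.03 ± 0.36 and did not pass the test (adjusted p = 0.0652 by edgeR); DESeq2 called it, with -1.18 and an adjusted p of 0.00124.

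*Acvr2b*, a type II receptor for activins, fell as well. Its levels in microglia were 35.7, 67.8, 55.8 and 75.0 CPM in sham, 4.57, 4.90, 0 and 4.68 CPM at day 2, and 3.13, 7.25, 1.12 and 17.9 CPM at day 14. No stroke library reached the lowest sham library. The fitted log2 changes from sham were -3.41 ± 0.63 at day 2 (adjusted p = 0.00175 by edgeR) and -2.55 ± 0.53 at day 14 (adjusted p = 0.00599), and both remained under all 16 alternatives. Without single libraries the day 14 change ran from -3.49 (without day 14 replicate 4, adjusted p = 0.000432) to -2.22. The gene passed the filter on low counts through the sham group, where it is high, so the test is not independent support for the direction. From day 2 to day 14 the change was 0.85 ± 0.65 (adjusted p = 0.497), and it was -0.075 without day 14 replicate 4.

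*Smad7* (chr18:75367529-75395935), the feedback inhibitor of the receptor, fell at day 2 and overlapped the sham level at day 14. Its microglial levels were 72.6, 64.0, 149 and 85.6 CPM in sham, 33.3, 45.6, 1.501 and 24.5 CPM at day 2, and 119, 43.0, 57.1 and 69.2 CPM at day 14. The day 2 libraries lay below all sham libraries, and the day 14 libraries overlapped them. The day 2 change from sham was -1.34 ± 0.41 (adjusted p = 0.0249 by edgeR). That call was lost without sham replicate 3 (-0.93, adjusted p = 0.107), without sham replicate 4 (0.0593), without day 2 replicate 1 (0.0829) or without day 2 replicate 4 (0.0827). Between day 2 and day 14 *Smad7* rose by 1.45 ± 0.41 (adjusted p = 0.0483 by edgeR), a call that 11 of 16 alternatives lost; without single libraries its adjusted p ran from 0.0256 to 0.178. At day 14 against sham the change was 0.11 ± 0.36 (adjusted p = 0.862), and its sign turned with DESeq2 (-0.04) and with scaling by library size alone (-0.33).

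**Figure D1:**
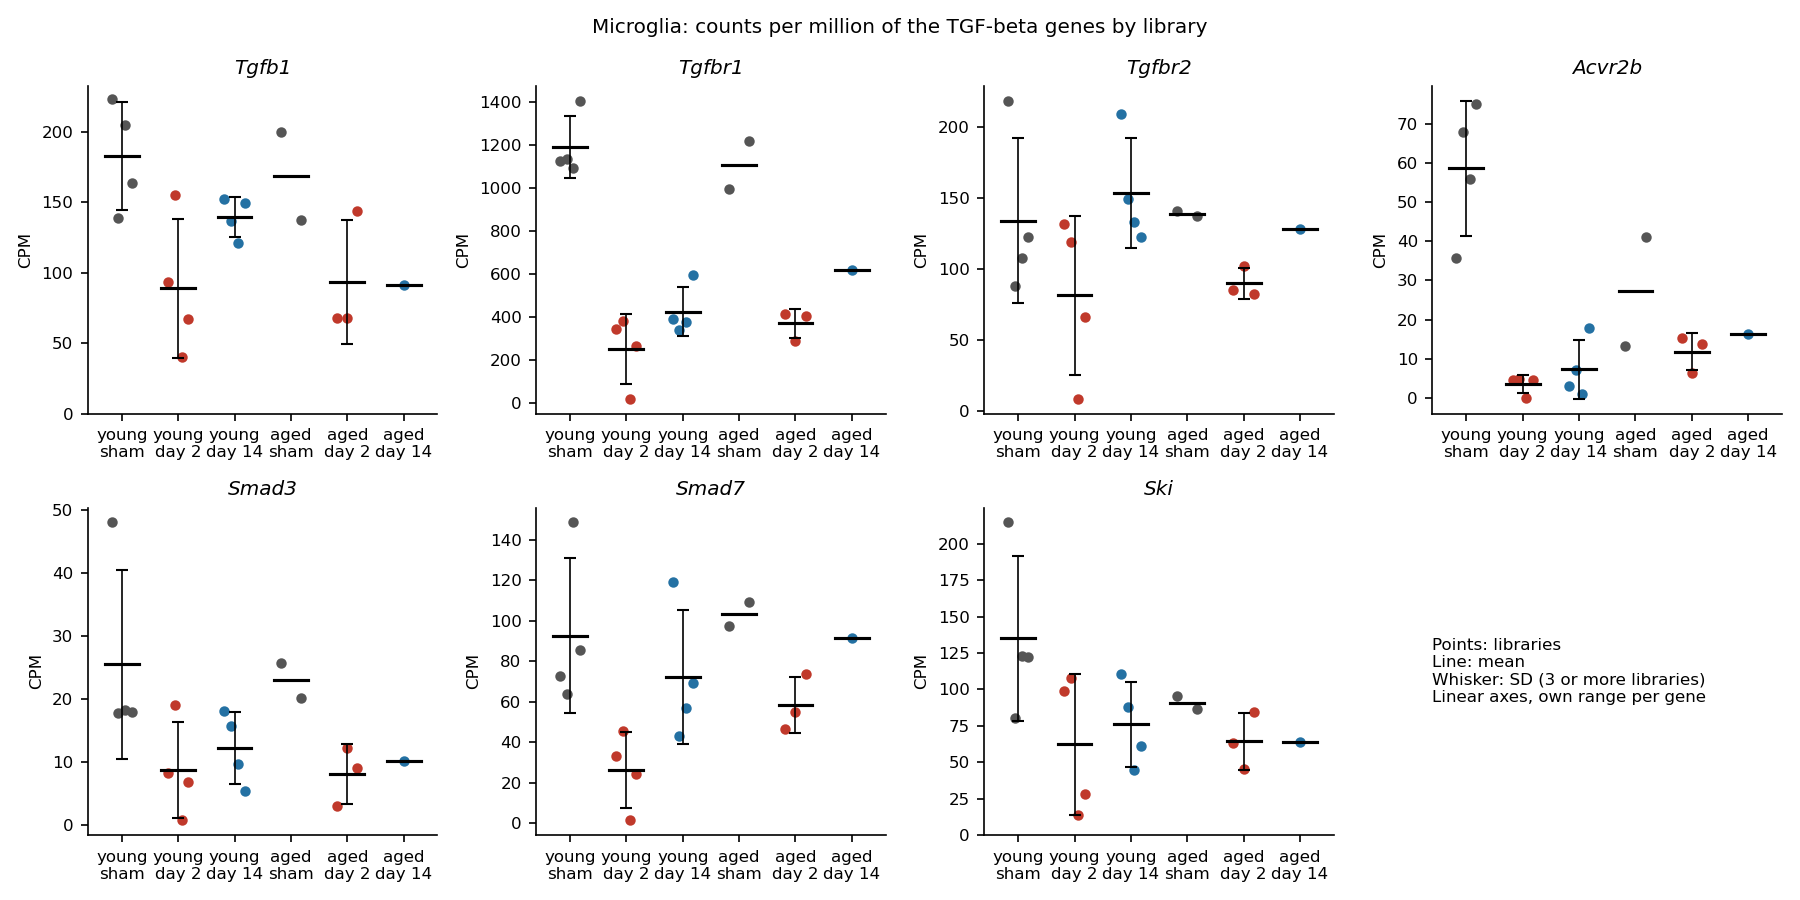
CPM of the 7 genes in microglia, 1 panel per gene, with 1 point per library for young and aged sham, day 2 stroke and day 14 stroke groups and a bar at each group mean. Young sham libraries lie at 1092 to 1403 CPM for *Tgfbr1* and 35.7 to 75.0 CPM for *Acvr2b*, above all young stroke libraries.

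The other 4 genes did not pass the test in microglia in any of the 3 comparisons. The ligand gene *Tgfb1* stood at 224, 139, 205 and 164 CPM in sham, 93.6, 156, 40.4 and 66.9 CPM at day 2, and 152, 137, 121 and 150 CPM at day 14. Day 2 replicate 2 overlapped the sham libraries. Its day 2 change was -0.72 ± 0.27 (adjusted p = 0.0583 by edgeR), and it passed without that replicate (-1.07, adjusted p = 0.00864) and with DESeq2 (-0.93, adjusted p = 0.0189). *Tgfbr2*, the receptor that binds the ligand, was at 218, 87.6, 107 and 122 CPM in sham, 131, 119, 8.64 and 66.0 CPM at day 2 and 209, 149, 133 and 122 CPM at day 14. The groups overlapped, with changes from sham of -0.29 ± 0.37 at day 2 and 0.68 ± 0.35 at day 14. *Smad3*, the transducer, ranged from 17.7 to 48.0 CPM in sham, 0.792 to 19.1 CPM at day 2 and 5.39 to 18.1 CPM at day 14, and *Ski* from 80.7 to 215 CPM, 13.4 to 108 CPM and 44.5 to 110 CPM. Their changes at day 2 were -1.10 ± 0.52 and -0.75 ± 0.46, with adjusted p of 0.116 and 0.215. So 3 of the 7 genes were called at day 2, each of them lower, where 31.4% of the 10145 genes tested were called in either direction and 15.7% were lower; at day 14 against sham 1 of 7 was called, beside 15.2% of all genes (4.66% lower), and between the times 1 of 7, beside 6.93% (3.47% higher). With the kind of library, split by mitochondrial share, as a term in the fit, 6 of the 7 were called at day 2, beside 3449 of the 10145 genes in that fit. These comparisons share the sham or the day 2 libraries.

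Day 2 replicate 3 held 58 microglia, against 618 to 1324 in the other day 2 libraries, and had the lowest level of every one of the 7 genes. Its *Tgfbr1* level of 20.1 CPM was 0.530 counts and became 241 CPM with counts rounded up per cell, and its *Smad7* level went from 1.501 to 15.5 CPM. Its summed level of 6 microglial markers was 820 CPM, the lowest of the day 2 range that reached 12854 CPM, while sham microglia had 17161 to 24878 CPM and day 14 microglia 11220 to 14461 CPM. The 6 monocyte or macrophage markers summed to 2690 to 4139 CPM in sham, 1856 to 4549 CPM at day 2 and 3740 to 4608 CPM at day 14 microglia. The part of these marker levels in the changes was not tested. Without that library the day 2 changes were -1.69 for *Tgfbr1* (adjusted p = 0.000514), -3.39 for *Acvr2b* (0.00402) and -1.28 for *Smad7* (0.0329), all by edgeR. Within the libraries of low mitochondrial share (1 sham, 2 day 2) the log2 ratios of group means at day 2 were -1.64, -2.91 and -0.88, in the same order. Within the others (3 sham, and 2 day 2 that include replicate 3) they were -3.10, -4.82 and -2.93. For *Acvr2b* at day 14 the ratios within the low-share libraries and within the others were -2.78 and -2.80. For *Smad7* between the times they were 1.04 and 2.28, the latter with replicate 3.

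Scaling by library size alone in place of TMM moved the median change of all microglial genes from -0.05 to -0.22 at day 2 and from -0.04 to -0.49 at day 14 against sham. The split of calls then went from 1588 higher and 1594 lower to 1273 and 2118 at day 2, from 1071 and 473 to 670 and 2755 at day 14, and from 352 and 351 to 202 and 955 between the times. *Tgfb1* at day 14, 0.08 ± 0.26 as fitted, was -0.06 with DESeq2 and -0.38 with library size alone.

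In aged microglia the same receptor was lower at day 2, though without a call. *Tgfbr1* stood at 995 CPM (male) and 1216 CPM (female) in aged sham, at 415, 290 and 403 CPM at day 2 after stroke and at 618 CPM in the single day 14 library. No aged stroke library reached either aged sham library. The day 2 change was -1.52 ± 0.45 with an adjusted p of 0.0921 by edgeR, and it was called by DESeq2 (-1.71, adjusted p = 0.000279), with library size alone (-1.59, 0.0381) and with counts rounded up (-1.56, 0.0441). *Acvr2b* was at 13.4 and 41.1 CPM in aged sham and 15.2, 6.51 and 13.7 CPM at day 2, which overlap, with a change of -1.34 ± 0.52 (adjusted p = 0.202). Of the 7 genes 0 were called by edgeR and 1 by DESeq2, with 2 at an unadjusted p under 0.05, and 2.3% of 11096 genes were called. The 7 day 2 changes ran from -1.52 to -0.51.

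The test of the difference between the aged and young day 2 changes called 0 of 11096 genes in microglia (623 at an unadjusted p under 0.05; DESeq2 called 1). For *Acvr2b* the difference was 1.98 ± 0.70 toward a smaller fall in aged mice (unadjusted p = 0.0118, adjusted p = 0.768 by edgeR), and for *Tgfbr1* 0.34 ± 0.58 (adjusted p = 0.955). With 2 aged sham libraries of different sex, sex and library cannot be told apart in that group.

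In endothelial cells 4 of the 7 genes could be tested, and *Smad7* was called at day 2. Its levels were 137, 56.5, 110 and 103 CPM in sham, 42.7, 33.1, 38.8 and 57.0 CPM at day 2 and 79.8, 84.3, 84.0 and 109 CPM at day 14. The sham and day 2 ranges touched at 1 library each. It fell at day 2 by 1.09 ± 0.29 on the log2 scale (adjusted p = 0.0212 by edgeR), and *Smad7* was 1 of the 4 genes that passed the filter on low counts, beside 13.3% of 5833 genes called (6.45% lower). With library size alone the split of these calls went from 402 higher and 376 lower to 302 and 467. The call was lost without sham replicate 1 (-0.90, adjusted p = 0.0678), sham replicate 3 (0.0710), sham replicate 4 (0.0565), day 2 replicate 1 (0.0544) or day 2 replicate 3 (0.0562), and also without a filter on low counts (0.0625) and without the cells of the highest totals (0.0563). The ratio of means was -1.86 in log2 within the libraries of low mitochondrial share, where sham is 1 library, and -0.91 within the others. At day 14 *Smad7* differed from sham by -0.19 and from day 2 by 0.90 ± 0.28 (adjusted p = 0.0511 by edgeR, beside 11.2% of genes called). Against sham at day 14, edgeR called 0 of the 5833 genes; an unadjusted p under 0.05 was found for 356, and 9 were called with DESeq2.

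*Tgfbr2* was as high in endothelial cells as in microglia, at 131 ± 45.3 CPM in sham, 102 ± 14.3 CPM at day 2 and 122 ± 10.4 CPM at day 14 (SD, n = 4 each), with a day 2 change of -0.28 (adjusted p = 0.416). *Ski* was at 52.6 ± 24.4, 28.1 ± 14.1 and 49.1 ± 25.1 CPM, with a day 2 change of -0.84 ± 0.42 (adjusted p = 0.190), and *Tgfb1* at 28.7 ± 7.76, 25.7 ± 10.6 and 35.8 ± 17.6 CPM. *Tgfbr1*, *Smad3* and *Acvr2b* did not pass the filter; *Acvr2b* was at 26.5 ± 32.8 CPM in sham, 10.9 ± 4.36 CPM at day 2 and 11.3 ± 3.95 CPM at day 14. In aged endothelial cells *Smad7* was at 178 and 188 CPM in sham, 23.7, 111 and 129 CPM at day 2 and 66.5 CPM at day 14. All aged stroke libraries lay below both aged sham libraries, with a day 2 change of -1.09 ± 0.49 (adjusted p = 0.400 by edgeR, beside 0.606% of genes called).

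**Figure D2:**
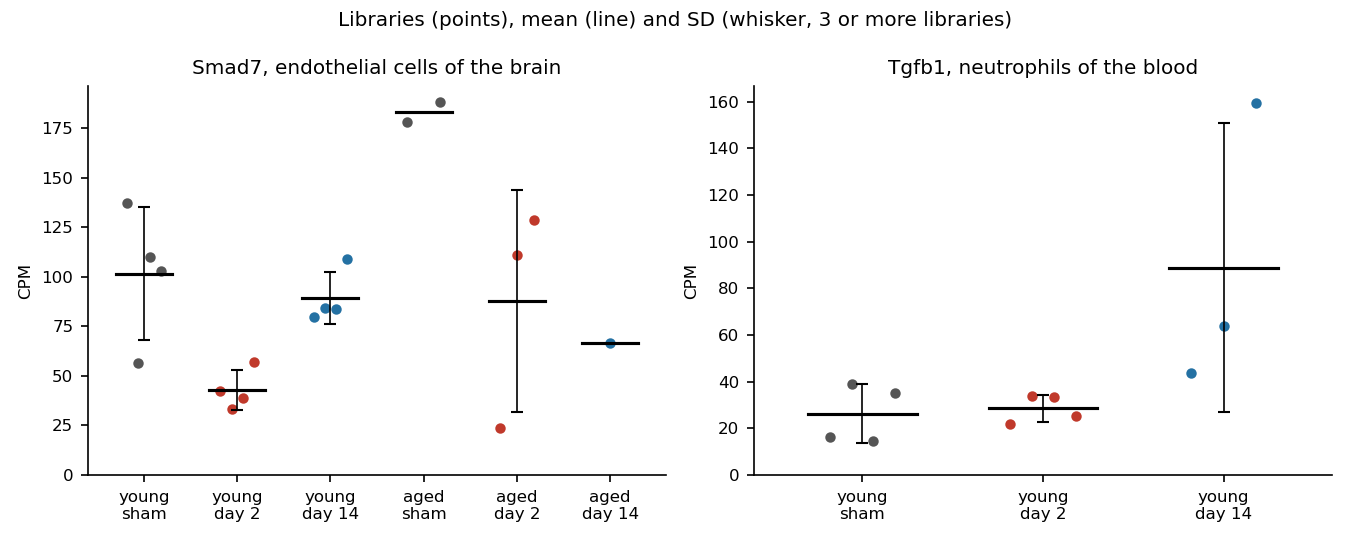
CPM of *Smad7* in endothelial cells of young and aged brain and of *Tgfb1* in blood neutrophils, with 1 point per library and a bar at each group mean. In young mice endothelial *Smad7* lies at 33.1 to 57.0 CPM at day 2 and 56.5 to 137 CPM in sham. For *Tgfb1*, 1 day 14 blood library stands at 159 CPM.

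In monocyte-derived cells, the blood-borne macrophage lineage of the injured brain, *Tgfbr1* was higher after stroke in young mice. Its levels were 15.8, 12.1, 0 and under 0.001 CPM in sham, 73.9, 67.3, 41.7 and 41.7 CPM at day 2 and 162, 99.1, 105 and 114 CPM at day 14. The 3 groups did not overlap. The fitted changes from sham were 2.53 ± 0.56 at day 2 (adjusted p = 0.0138 by edgeR) and 3.61 ± 0.53 at day 14 (adjusted p = 0.00107). The sham libraries held 43 to 99 of these cells and 2 *Tgfbr1* counts in all. The gene passed the filter on low counts through the stroke groups, where it is high, so the test is not independent support for the direction. The sizes rest on few counts: the pooled ratio was 6.34 at day 2, with a 95% counting interval of 1.75 to 52.5, and 14.8 at day 14, with 4.07 to 122. Without sham replicate 1 the fitted changes were 3.16 and 4.24 (adjusted p = 0.0363 and 0.00649 by edgeR), and with cells of the highest totals left out 3.75 and 4.83. This was 1 of 5 genes tested in each comparison, beside 6.71% of 8080 genes called at day 2 (5.66% higher) and 5.15% at day 14 (4.21% higher).

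The size depended on how fractional counts were treated. With every count rounded up per cell the sham levels became 51.0, 94.1, 23.1 and 134 CPM, the day 2 levels 74.7, 72.4, 73.1 and 60.7 CPM and the day 14 levels 168, 105, 127 and 170 CPM. Sham then overlapped both stroke groups: sham replicate 4, at 134 CPM, lay above day 14 replicates 2 and 3. The changes from sham were 0.44 at day 2 (adjusted p = 0.554 by edgeR) and 1.41 at day 14 (adjusted p = 0.0282). The day 2 call was also lost with DESeq2 (adjusted p = 0.0742) and with library size alone (0.0552), while the day 14 call remained in 17 of 17 alternatives. TMM left the median change of all genes at 0.29 and 0.28, and library size alone at -0.13 and -0.11, with calls of 457 higher and 85 lower becoming 180 and 175 at day 2, and 340 and 76 becoming 200 and 199 at day 14. Microglial markers summed to 0 to 597 CPM in these cells in sham, 270 to 751 CPM at day 2 and 371 to 2190 CPM at day 14, and their part in the *Tgfbr1* levels was not tested.

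**Figure D3:**
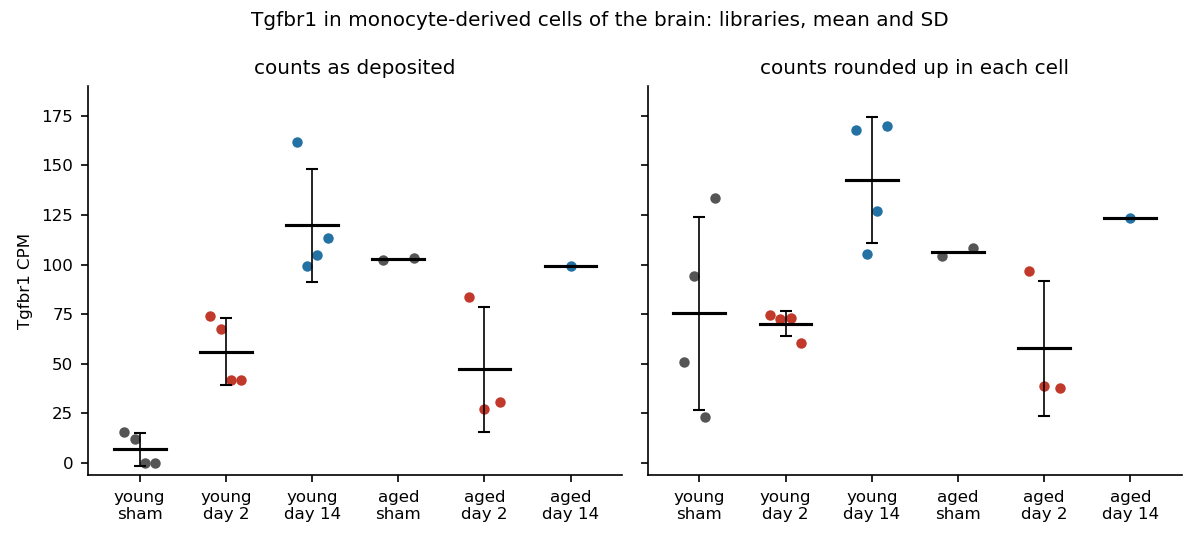
*Tgfbr1* in monocyte-derived cells of young and aged brain, in CPM per library, from the deposited counts and from counts rounded up per cell. With deposited counts young sham lies at 0 to 15.8 CPM, and with rounded counts at 23.1 to 134 CPM. Young day 2 libraries then lie at 60.7 to 74.7 CPM and young day 14 libraries at 105 to 170 CPM, and young sham overlaps both.

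Within the libraries of low mitochondrial share the log2 ratios of mean *Tgfbr1* were 2.16 at day 2 and 3.04 at day 14, and within the others 3.38 and 4.76. Between day 2 and day 14 the fitted change was 1.07 ± 0.29 (adjusted p = 0.0864 by edgeR, beside 1.79% of genes called; DESeq2 called it with an adjusted p of 0.00483). *Smad7* had 0 counts in all 4 sham libraries, 10.5 to 19.4 CPM at day 2 and 6.62 to 29.2 CPM at day 14. Against a floor of 3 counts over the sham group the day 2 level was at least 1.15-fold and the day 14 level at least 1.46-fold higher. Neither change was called (adjusted p = 0.0817 and 0.0596 by edgeR). *Smad7* passed the filter on low counts through the stroke groups, where it is high, so the test is not independent support for the direction. *Tgfb1* was at 148 ± 42.1 CPM in sham, 125 ± 40.5 CPM at day 2 and 116 ± 19.8 CPM at day 14; the fit gave 0.18 and 0.06, with no call, although the mean CPM was lower than in sham. *Tgfbr2* was at 26.1 ± 29.5, 21.4 ± 7.10 and 29.8 ± 21.2 CPM; its fitted changes of 0.63 and 1.13 rest on 5 sham counts, and at day 2 the mean CPM was again lower than in sham. *Ski*, at 19.0 ± 20.3, 35.7 ± 16.9 and 44.7 ± 15.1 CPM over 6 sham counts, gave 0.95 and 1.27, and neither gene was called. In aged monocyte-derived cells *Tgfbr1* was at 102 and 103 CPM in sham, 83.5, 27.5 and 30.9 CPM at day 2 and 99.2 CPM at day 14, with a day 2 change of -0.58 (adjusted p = 0.722 by edgeR, beside 2.56% of genes called). The 2 aged sham libraries held 7 *Tgfbr1* counts in all, and with library size alone the split of all calls went from 189 higher and 20 lower to 51 and 56. The aged minus young difference was -3.16 ± 1.00 (unadjusted p = 0.00564, adjusted p = 0.815) and rests on few sham counts at both ages, and edgeR called 0 of 8167 genes for it (473 at an unadjusted p under 0.05; DESeq2 called 3).

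**Figure D4:**
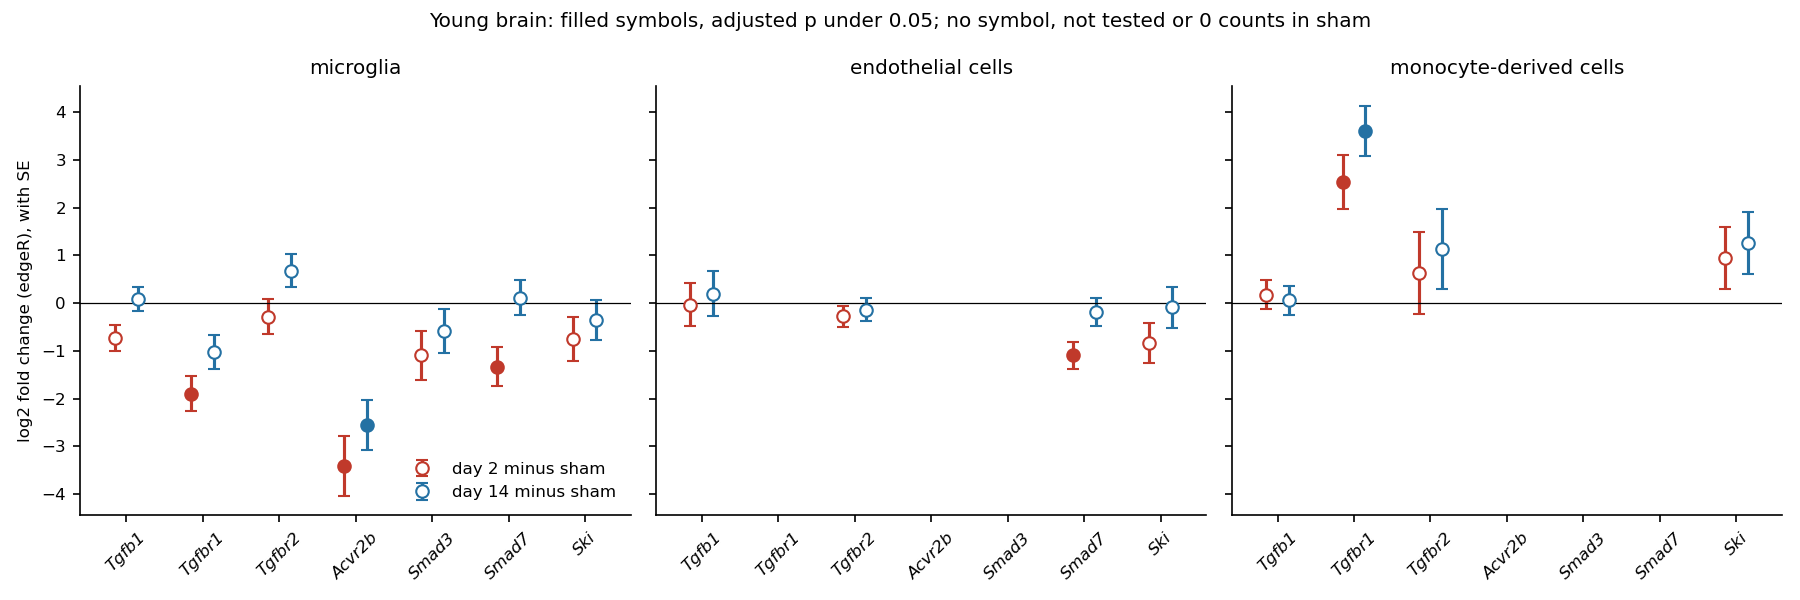
Log2 fold change ± approximate SE of each gene at day 2 and day 14 against sham in microglia, endothelial cells and monocyte-derived cells of young brain. Filled points mark an adjusted p under 0.05 by edgeR, and no point is drawn where a gene was not tested or had 0 sham counts. *Tgfbr1* is at -1.90 in microglia and 2.53 in monocyte-derived cells at day 2.

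In blood, *Tgfb1* was called higher in neutrophils at day 14. Its levels were 16.3, 39.1, 14.5 and 35.1 CPM in sham, 21.9, 33.8, 33.2 and 25.5 CPM at day 2 and 43.5, 63.8 and 159 CPM at day 14. All 3 day 14 libraries lay above the other 8, and replicate 3 stood far above its group. The change from sham was 1.44 ± 0.40 (adjusted p = 0.0412 by edgeR), the 1 call among 3 genes tested, beside 5.99% of 4944 genes (2.18% higher). It was lost without day 14 replicate 3 (0.91, adjusted p = 0.251), day 14 replicate 2 (0.0718), sham replicate 1 (0.143) or sham replicate 3 (0.0976). It was also lost when the compared groups alone were fitted (0.0806) and with counts rounded up (0.0525), where sham replicate 2, at 45.7 CPM, lay above day 14 replicate 1, at 44.3 CPM. Library size alone moved the median change of all genes from 0.02 to 0.36 and the split of calls from 108 higher and 188 lower to 293 and 99. Against day 2 the change was 1.27 ± 0.38 (adjusted p = 0.0735, beside 4.69% of genes). Neutrophil markers summed to 194330 to 301200 CPM in sham and 106550 to 187280 CPM at day 14, and monocyte markers to 4703 to 8875 CPM and 6810 to 15151 CPM; their part was not tested.

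In B cells, monocytes and T cells of blood edgeR called 0 of 39 tests of these genes across the 3 comparisons and DESeq2 0 as well, with 3 at an unadjusted p under 0.05. The share of all genes called by edgeR was 0.0114% in B cells at day 14 against sham or against day 2, 0.254% and 0.537% in monocytes for the same comparisons, and 0% in the other 5. In the cells coded DC of brain 0 of 9 tests were called (1 at an unadjusted p under 0.05, DESeq2 0), beside 1.01% of genes at day 2 and 1.53% at day 14 against sham and 0.893% between the times. None of the 7 genes passed the filter in NK cells of blood or in the cells coded BAM, granulocytes, B cells and T cells of brain.

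Across the 9 types of young brain with at least 6 libraries, *Tgfbr1* averaged 621 ± 444 CPM in microglia (SD, n = 12), then 92.9 ± 79.9 CPM in the cells coded BAM, 61.0 ± 51.4 CPM in monocyte-derived cells and 60.2 ± 59.3 CPM in granulocytes, and it was lowest in endothelial cells, at 12.6 ± 11.7 CPM. With counts rounded up NK cells were lower, at 25.0 CPM beside 32.3 CPM in endothelial cells. With cells of the highest totals left out B cells were lower, at 5.89 CPM beside 12.6 CPM. Microglia exceeded the cells coded BAM in 11 of 12 libraries, and the next neighbours in the order did not differ beyond their spread. Levels at a few percent of the microglial one, as in endothelial cells, can include free RNA in droplets, which was not tested. *Acvr2b* averaged 23.2 ± 28.0 CPM in microglia and 16.2 ± 19.0 CPM in endothelial cells, and microglia were above endothelial cells in 4 of 12 libraries. In the sham group the means were 58.6 CPM and 26.5 CPM, at day 2 they were 3.54 CPM and 10.9 CPM, and at day 14 they were 7.36 CPM and 11.3 CPM. *Acvr2b* had 0 counts in granulocytes and in B, NK and T cells.

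*Tgfbr2* averaged 123 ± 56.5 CPM in microglia and 119 ± 28.3 CPM in endothelial cells, which did not differ beyond their spread, and 62.1 ± 37.9 CPM in the cells coded BAM. *Tgfb1* averaged 137 ± 52.2 CPM in microglia and 130 ± 35.1 CPM in monocyte-derived cells, again within their spread, and was lowest in endothelial cells, at 30.1 ± 12.3 CPM. *Smad7* was highest in endothelial cells, at 77.9 ± 32.9 CPM, followed within the spread by NK cells at 68.6 ± 41.4 CPM, B cells at 64.1 ± 55.7 CPM and microglia at 63.7 ± 40.5 CPM, and lowest in the cells coded BAM at 10.4 ± 19.4 CPM. *Ski* was at 91.1 ± 53.3 CPM in microglia and 75.2 ± 81.2 CPM in granulocytes, and *Smad3* at 19.4 ± 28.4 CPM in T cells, 16.7 ± 29.4 CPM in granulocytes and 15.5 ± 11.98 CPM in microglia.

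In blood *Tgfb1* was highest in Eos.Bas, at 183 ± 68.6 CPM (n = 7), DC at 156 ± 37.5 CPM (n = 6) and monocytes at 152 ± 33.6 CPM (n = 11), and was 44.2 ± 40.6 CPM in neutrophils and 35.5 ± 12.8 CPM in T cells. Receptor levels divided differently. *Tgfbr1* had its highest mean in monocytes, at 79.8 ± 35.4 CPM, followed within the spread by Eos.Bas at 55.1 ± 65.6 CPM (monocytes above in 4 of 7 libraries). *Tgfbr2* led in B cells, at 76.8 ± 15.5 CPM, and T cells, at 66.3 ± 18.6 CPM. *Smad7* was highest in T cells, at 91.5 ± 25.1 CPM, and lowest in monocytes, at 7.11 ± 3.92 CPM. *Smad3* was at 39.2 ± 34.1 CPM in NK cells and at or under 7.73 CPM in the other types, *Ski* at 79.0 ± 54.6 CPM in Eos.Bas, and *Acvr2b* at 3.597 ± 4.87 CPM in monocytes and 0.840 ± 1.47 CPM in T cells, with 0 counts elsewhere.

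**Figure D5:**
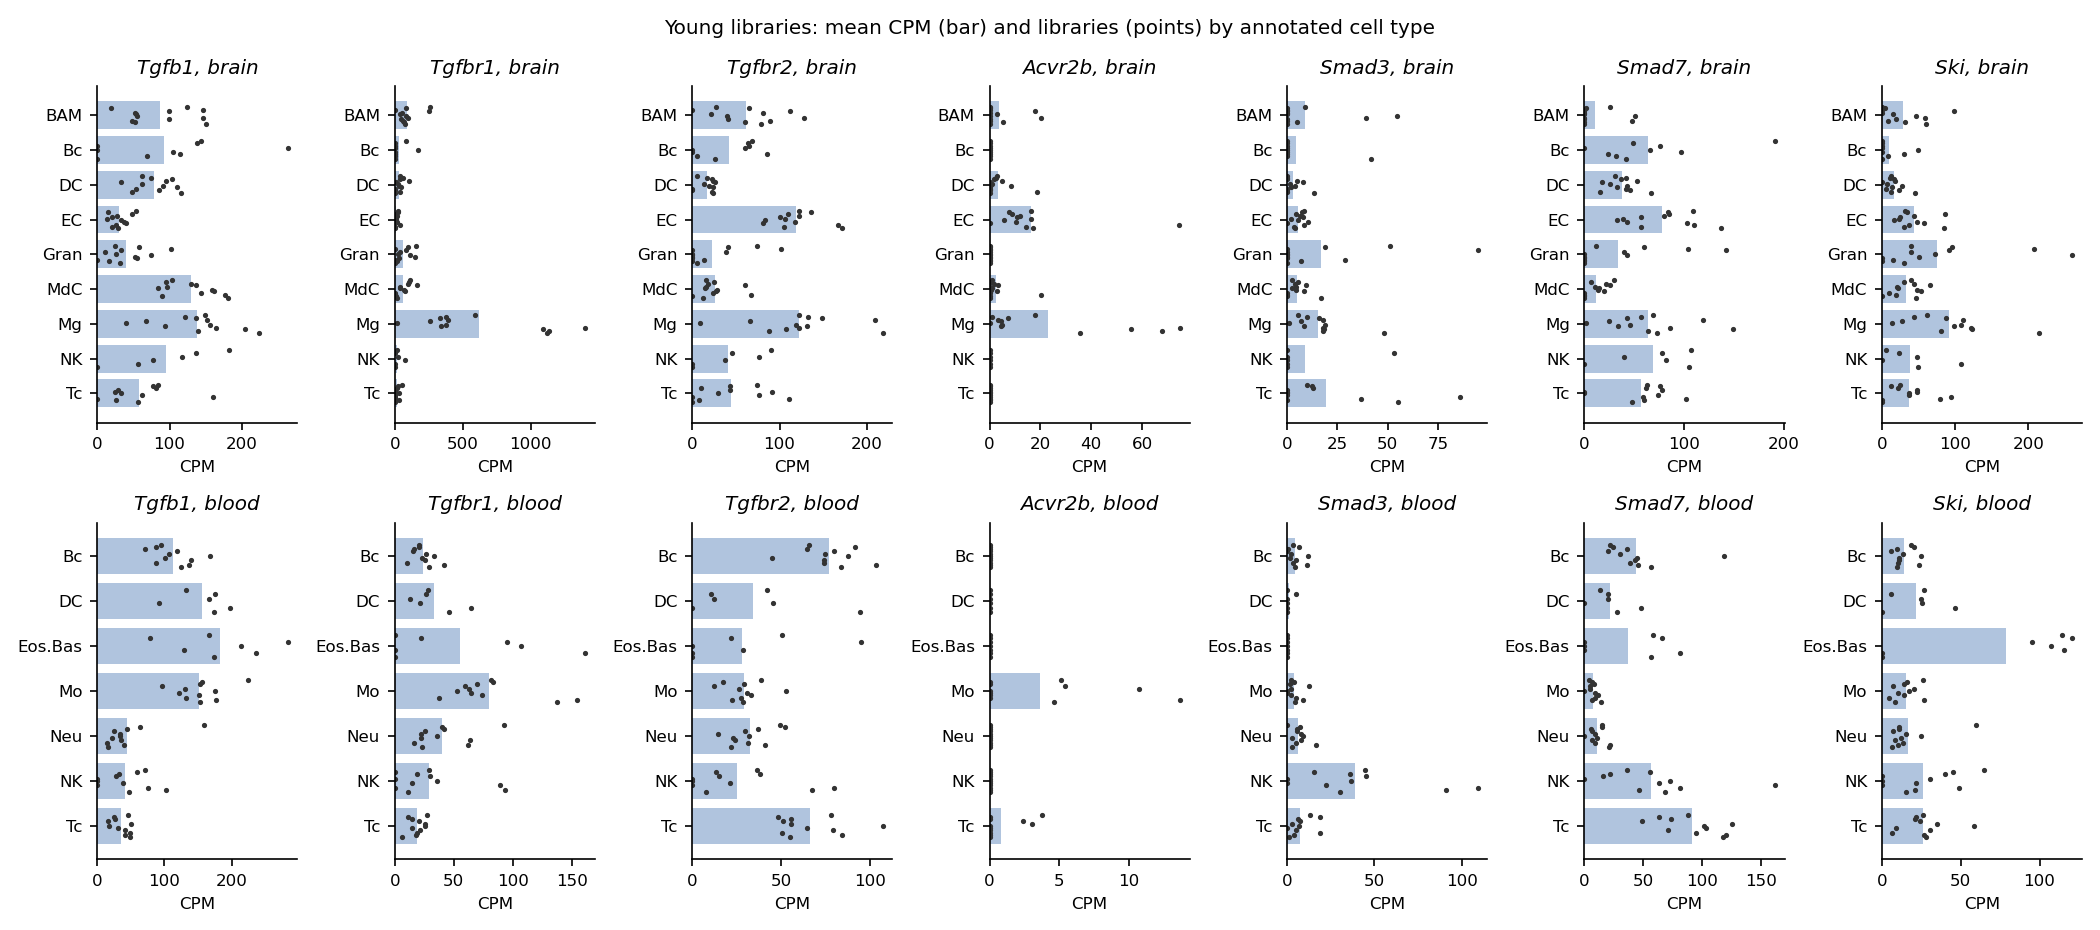
Mean CPM of each gene by cell type (bars, from 0) with 1 point per library, brain in the upper row and blood in the lower row. The highest bar for *Tgfbr1* is in microglia (mean 621 CPM), and those for *Smad7* are in endothelial cells of brain (77.9 CPM) and T cells of blood (91.5 CPM).

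The genes whose level ran most like each member over the 83 young brain sums of 9 types and 12 libraries were, by Pearson's r of log2(CPM + 10) among 9088 genes, *Bhlhe41* (0.84), *Usp2* (0.83) and *Hpgds* (0.80) for *Tgfbr1*, *Nbea* (0.81), *Nav2* (0.77) and *Mlph* (0.73) for *Acvr2b*, and *Runx1* (0.71), *Irf8* (0.69) and *Pou2f2* (0.68) for *Tgfb1*. For *Tgfbr2* they were *Mesd*, *Sesn1* and *Zbtb4* (each 0.72), for *Smad7* *Nol8* (0.62), *Pdcd11* (0.62) and *Gne* (0.61), for *Ski* *Tanc2* (0.61), *Ccni* (0.61) and *Serpine2* (0.61), and for *Smad3* *Spata13* (0.49), *Ube4b* (0.49) and *Abcc5* (0.48). The sums share libraries and depth, so these values describe the samples.

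Of 66 other pathway genes, 44 were tested in microglia at day 2: 7 rose and 10 fell, with a median change of -0.46 against -0.05 over all genes. The 17 called are 38.6% of the 44, beside 31.4% of all genes called in this comparison, and the 10 that fell 22.7%, beside 15.7%. Among 7 further receptors 3 fell: *Acvr2a* (-1.38 ± 0.31), the BMP receptor *Bmpr2* (-1.52 ± 0.36) and the co-receptor *Eng* (-1.49 ± 0.36). Of the 4 further SMADs 1 fell, *Smad1* (-1.39 ± 0.34). Among 10 negative regulators 3 fell, *Skil*, *Smurf2* and *Ppm1a*, and *Fkbp1a*, which binds the type I receptor, rose by 1.17 ± 0.28 (adjusted p = 0.0068 by edgeR). Of 10 genes known to depend on TGF-beta in microglia 3 fell, *Mertk* (-2.04 ± 0.48), *P2ry12* (-1.76 ± 0.61, adjusted p = 0.0408 by edgeR) and *Slc2a5* (-1.06 ± 0.32), and 0 rose. At day 2 these ranged from 5.82 to 379, 3.25 to 1291 and 0 to 84.3 CPM, in the same order. *P2ry12* is also among the microglial markers summed above. Of all genes 15.7% were called lower and 31.4% in either direction, and this list of 10 was not tested against those shares.

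Of the 8 tested target genes 5 rose, 0 fell and 3 were not called, where 1588 of 10145 genes were called higher. *Tgfbi*, a matrix protein induced by TGF-beta, rose from 21.2 ± 14.2 to 380 ± 345 CPM (3.94 ± 0.71, adjusted p = 0.00144 by edgeR). *Cdkn1a*, the cell cycle inhibitor p21, rose from 108 ± 55.4 to 377 ± 148 CPM (1.80 ± 0.41, adjusted p = 0.00596). *Fn1*, fibronectin, had 0 counts in sham and 122 ± 118 CPM at day 2, at least 183-fold higher. It is also among the monocyte or macrophage markers summed above, and the part of other cells in its rise was not tested. *Id1* and *Id2*, which BMP signals also induce, rose as well. Monocyte-derived cells held 2334 ± 452 CPM of *Tgfbi* at the same time. The ligand *Gdf15* was the 1 of 5 ligand and activation genes called, higher. *Fn1*, *Id1* and *Gdf15* passed the filter through the stroke groups, where they are high.

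At day 14 against sham 5 of the 44 rose and 3 fell, 18.2% of them, beside 15.2% of all genes called. *Cdkn1a* was 2.21 ± 0.40 higher (adjusted p = 0.00261 by edgeR). *Fn1*, also a monocyte or macrophage marker, was at least 108-fold higher. The fructose transporter *Slc2a5* fell by 1.25 ± 0.31 (adjusted p = 0.0157 by edgeR) and *Eng* by 1.21 ± 0.32 (adjusted p = 0.0242). Leaving out day 14 replicate 1 ended both calls (adjusted p = 0.0570 and 0.0687), and that of *Eng* also ended on leaving out sham replicate 1 (0.0671) or sham replicate 3 (0.0640). *Gas6*, from the same list of TGF-beta dependent genes as *Slc2a5*, rose by 1.31 ± 0.35 (adjusted p = 0.0247 by edgeR). From day 2 to day 14 *Tgfbi* fell by 4.16 ± 0.72, to 13.0 ± 8.72 CPM (adjusted p = 0.00433), and the corepressor *Tgif1* rose by 1.63 ± 0.40 (adjusted p = 0.0270), a call that ended on leaving out day 2 replicate 1 (0.136), 2 (0.0685) or 4 (0.0565), or replicate 1 of day 14 (0.0718).

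In endothelial cells at day 2, 3 of 30 tested pathway genes rose and 7 fell, 33.3% of them, beside 13.3% of all genes called (6.45% lower), with a median of -0.17 against 0.00 over all genes. *Fkbp1a* rose from 294 ± 94.5 to 1169 ± 130 CPM (2.07 ± 0.24, adjusted p = 0.000387 by edgeR), *Col4a1*, a basement membrane collagen, by 1.61 ± 0.36 (adjusted p = 0.0106), and *Timp1*, a protease inhibitor, from 0 counts to 71.7 ± 10.1 CPM, at least 20.0-fold, a gene that passed the filter through the stroke groups. *Cdkn2b*, a cell cycle inhibitor induced by TGF-beta, fell from 161 ± 53.0 to 41.4 ± 15.9 CPM (-1.79 ± 0.34, adjusted p = 0.00414). The others that fell were *Tgfb2* (-1.55), *Ctgf* (-1.50), *Tgfbr3* (-1.17), *Gas6* (-1.02), *Ltbp4* (-0.87) and *Bmpr2* (-0.85). At day 14 against sham 0 of the 30 were called by edgeR.

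In monocyte-derived cells 4 of 36 tested pathway genes rose and 0 fell at each time against sham, 11.1% of them, beside 6.71% and 5.15% of all genes called (5.66% and 4.21% higher), with medians of 0.86 and 0.82 (0.72 and 0.74 with genes of 0 sham counts at their bound) against 0.29 and 0.28 over all genes. At day 2 they were *Tgfbi* (2.42 ± 0.39, adjusted p = 0.00167 by edgeR), *Id2* (1.69 ± 0.42, adjusted p = 0.0267, but 0.0670 to 0.0919 without sham replicate 1 or 3 or day 2 replicate 3 or 4; 2.54 without sham replicate 2), *Timp1*, at least 6.90-fold higher, and *Gdf15*, with a pooled ratio of 7.82 (2.16 to 64.7) over 2 sham counts. *Timp1*, with 0 sham counts, and *Gdf15* passed the filter through the stroke groups. At day 14 they included *Gdf15* (ratio 21.2, interval 5.84 to 175), *Timp1* and *Skil* (1.27 ± 0.34, adjusted p = 0.0390, but 0.0675 to 0.167 without sham replicate 1, 3 or 4 or day 14 replicate 1, 3 or 4).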

How the data were processed

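Drop-seq libraries of brain (12 young, 6 aged) and blood (11) were used. Per the labels and the deposited tables, values are expected counts per gene and cell, not whole and not scaled, and the deposited cell tables give a mitochondrial percent and the authors' cell type. Seurat and mm10 are named in the submitters' processing notes; the aligner, the counter and the step that made counts fractional are not given in the sources used here. For each library the counts of a cell type were added up and rounded to whole numbers for the tests; libraries with under 20 cells of a type were left out. edgeR 4.0.16 (R 4.3.3) with TMM, filterByExpr and its quasi-likelihood test was fitted per type over all groups of a tissue and age, or over young and aged day 2 groups; p-values were adjusted by Benjamini-Hochberg over all genes tested, and an adjusted p under 0.05 is a call. A contrast needed 3 libraries per group (2 for aged sham). The test was tried on simulated counts first. Pools are the replicates, so p-values measure the spread between pools.

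Alternatives were DESeq2 1.42.0, library size alone, no filter, counts rounded up per cell, 50 cells per library, cells above the 95th percentile of totals left out (no doublet caller was run), fits of the compared groups, a replicate block, each library left out, and, chosen after seeing the data, a mitochondrial split at 10%. Sex was a further term tried in the fits of young and aged day 2 groups. Other genes are named by a rule: up to 4 called list genes per comparison at a mean of 20 CPM or more; further called list genes were named after their values were seen, and 1 called list gene is not reported here. The members and lists were chosen with earlier results of these data known. Counting intervals are at 95%, and they and the floor of 3 counts cover counting error only. Python 3.11.15 was used for sums, tables and figures. Depth was 819438 to 5855050 counts per library.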

Additional observations from a re-analysis of the deposited data

Results flagged for a closer look

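Of 29 groups of 4 libraries compared for these genes, 4 held a library far from the others, where chance gives about 1 in 20 groups. Sham replicate 4 had the highest *Tgfbr1* in microglia, 1403 CPM, beside 1092 to 1134 CPM in the other sham libraries, and sham replicate 1 the highest *Smad3*, 48.0 CPM beside 17.7 to 18.3 CPM. Day 2 replicate 3, the library with 58 microglia, had the lowest *Acvr2b* in microglia, 0 CPM beside 4.57 to 4.90 CPM. At that library's depth 3 counts are 114 CPM, so its 0 cannot be told from the levels of the others. In endothelial cells day 14 replicate 4 had the highest *Smad7*, 109 CPM beside 79.8 to 84.3 CPM. No explanation of these values was tested.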

How the results depend on the processing

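Of the 30 comparisons with a tested member, 19 kept the same number of calls under every alternative that could be run. In each of these 19 that number was 0. The 7 comparisons with a member called are all among the others, which moved as follows, as numbers of members called. In microglia at day 2 DESeq2 called *Tgfb1* beside the 3 genes called by edgeR, and further small moves in that comparison are not listed. With DESeq2, day 14 microglia against sham went from 1 to 2, day 14 against day 2 microglia from 1 to 2, aged microglia from 0 to 1, monocyte-derived cells at day 2 from 1 to 0 and between the times from 0 to 1, and neutrophils between the times from 0 to 1. With library size alone, microglia gave 2 at day 14 and 0 between the times, aged microglia 1, monocyte-derived cells at day 2 gave 0, and endothelial cells (0 as fitted) and neutrophils between the times 1 each. Without a filter, microglia between the times gave 0, endothelial cells at day 2 gave 0 and neutrophils between the times 1. With counts rounded up, microglia gave 2 at day 14 and 2 between the times, aged microglia 1, endothelial cells at day 2 gave 2, monocyte-derived cells at day 14 gave 2 and neutrophils at day 14 gave 0. Leaving out cells of the highest totals gave 0 for microglia between the times and 0 for endothelial cells at day 2. Fitting the compared groups alone gave 2 for microglia at day 14, 0 between the times, 1 for endothelial cells between the times, 0 for neutrophils at day 14 and 1 between the times. The mitochondrial split as a term gave 6 for microglia at day 2 in place of 3 (3449 of 10145 genes called, in place of 3182), 3 between the times (1040 in place of 703), and 1 for endothelial cells and 1 for monocyte-derived cells between the times. The cause of these moves was not tested.

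Leaving out 1 library at a time gave 2 to 5 members called in microglia at day 2, 1 to 2 at day 14 and 0 to 2 between the times, 0 to 1 in endothelial cells at day 2 and between the times, 1 to 1 and 1 to 2 in monocyte-derived cells at day 2 and day 14, and 0 to 1 in neutrophils at day 14 and between the times. Small changes turned sign. *Tgfb1* in endothelial cells at day 2 (-0.03) was 0.0058 without a filter and 0.0051 with the block, and ran from -0.20 to 0.15 without single libraries. *Tgfb1* in monocyte-derived cells at day 2 (0.18) was -0.0099 with DESeq2 and -0.24 with library size alone (-0.025 to 0.39 without single libraries), and at day 14 (0.06) it was -0.054, -0.34, -0.039 rounded up, -0.15 in the compared groups and -0.011 with the mitochondrial split (-0.098 to 0.28). In microglia at day 14 *Tgfb1* (0.08) was -0.065 and -0.38 with DESeq2 and library size (-0.018 to 0.17), and *Smad7* (0.11) was -0.037 and -0.33 (-0.23 to 0.45). Without single libraries *Acvr2b* between the times in microglia ran from -0.075 to 1.20, *Smad7* in endothelial cells at day 14 from -0.39 to 0.013 and *Tgfb1* in neutrophils at day 2 from -0.018 to 0.42.

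Whether replicate numbers pair the samples was not settled. Of 138 same-number pairs 60 correlated above 0.1 (range -0.381 to 0.801), and in 0 of 13 cell types did every pair. Same-number pairs were not set against other pairs, so pairing is not excluded. Young brain libraries numbered 1 were all of the kind with low mitochondrial share, and those numbered 3 or 4 all of the other kind. The replicate block gave 0 calls for microglia between the times, where *Smad7* was 1.34, and 1 call each for endothelial cells (*Smad7*, 0.96) and monocyte-derived cells (*Tgfbr1*, 1.08) between the times. A technical batch term was not run, since the cell tables name no batch. Depth limits the monocyte-derived cell results, since sham libraries held 43 to 99 of these cells, and no member passed the filter in 5 further types.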
